A study of Mus musculus with 4 samples.

Results

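Clade B serpins are the intracellular branch of the serpin superfamily, a family of protease inhibitors. 9 of them were examined here in mouse hair follicle stem cells: Serpinb1a, Serpinb2, Serpinb5, Serpinb7, Serpinb8, Serpinb9, Serpinb10, Serpinb11 and Serpinb12. They were taken by gene symbol, and 8 of the 9 had at least 1 probe set that the platform annotation assigns to that gene alone. These 8 were covered by 15 of the 45101 probe sets and stand among 18193 genes in all. The expression of Serpinb10 (bomapin, a serpin of blood-forming cells) was not analysed here. The set was chosen by family together with the measured values of Serpinb2, both its KO and WT values and its spread between the replicate numbers. The Serpinb2 differences by genotype and by number are therefore given below as descriptions, with no test.

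RNA was hybridised to 4 one-colour Affymetrix arrays, 2 for the miR-205 knockout (KO) and 2 for the wild type (WT), with replicates numbered 1 and 2 in each genotype. All 4 samples came from skin of C57BL/6 mice at postnatal day 4, and the cells were sorted by flow cytometry as hair follicle stem cells. The labels name neither the deleted part of the miR-205 locus nor the antibodies of the sort, and do not say whether a sample was 1 animal or a pool, so p-values measure only the spread between these samples. A treatment note shared by all 4 samples describes instead a doxycycline-driven miR-203 line (K14-rtTA/TRE-miR-203/K14-H2BGFP), which does not match the titles and was not used.

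A serpin presents a loop as bait to a protease, is cleaved and then traps the enzyme in an inactive complex. Clade B members lack a classical secretion signal, and several are made by stratified epithelia, where they are known to protect cells from their own or neighbouring cells' proteases. Serpinb2, also called plasminogen activator inhibitor 2, blocks urokinase and is known to be induced in keratinocytes by stress and inflammation. In the mouse most clade B genes lie in a pair of clusters. Of those named by RefSeq, 12 were on chromosome 1, among them 7 of the 9 members, and 17 (with a pseudogene) on chromosome 13, among them Serpinb1a and Serpinb9.

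The microRNA removed in the KO is shown for reference, with its seed (bases 2 to 8) in capitals. It is from RefSeq, build GRCm38.p6, at chr1:193507503-193507524 on the minus strand, the same chromosome as the larger group of members.
mmu-miR-205-5p: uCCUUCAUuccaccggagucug

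Serpinb2 had the widest spread of the members. Its log2 value was 10.77 on KO 1, 10.07 on WT 1, 9.17 on KO 2 and 7.81 on WT 2. The KO and WT values therefore overlapped, since WT 1 lay above KO 2, while both arrays numbered 1 lay above both numbered 2. Within each number KO was the higher array, by 0.69 on the log2 scale (1.62-fold) in number 1 and by 1.35 (2.55-fold) in number 2. The difference between the numbers was larger than the difference between the genotypes. Number 1 exceeded number 2 by 1.60 (3.04-fold) among the KO arrays and by 2.26 (4.79-fold) among the WT arrays. The KO mean was 9.97 ± 1.13 and the WT mean 8.94 ± 1.60 (SD, n = 2 each), so that the average difference of 1.02 was smaller than the SD of either group. Without WT 2, the lowest array, that average was -0.11. It was 0.22 without KO 1, 1.82 without KO 2 and 2.15 without WT 1. Each of these sets both arrays of a genotype against a single array of the other, so the difference between the numbers enters into it. Only 18 of the 18193 genes had a wider range over the 4 arrays than the 2.95 of Serpinb2.

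**Figure D1:**
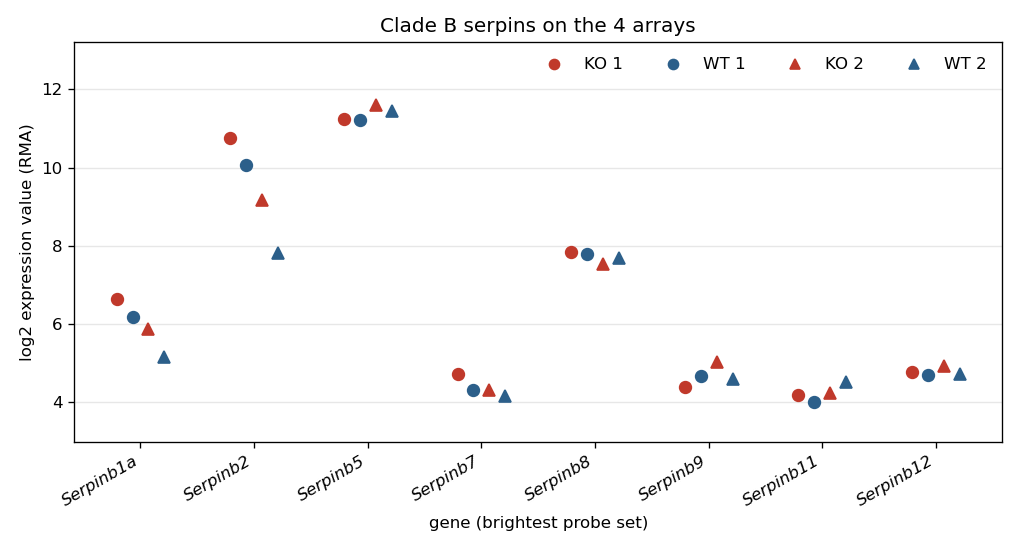
Log2 expression value (RMA) of the brightest probe set of each of the 8 measured members, 1 point per array (red KO, blue WT, circles number 1, triangles number 2). Serpinb2 runs from 10.77 on KO 1 to 7.81 on WT 2 and Serpinb1a from 6.65 to 5.15 in the same order of arrays, while Serpinb5 stays between 11.22 and 11.61. Heights of different genes are not comparable.

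Serpinb1a, the leukocyte elastase inhibitor that also acts on cathepsin G and proteinase 3, followed the same order of arrays as Serpinb2. It was at 6.65 on KO 1, 6.19 on WT 1, 5.87 on KO 2 and 5.15 on WT 2. As with Serpinb2, the genotypes overlapped and the numbers did not. Its difference between KO and WT was 0.59 with a standard error (SE) of 0.53, or 1.51-fold, and did not pass (limma adjusted p = 1). The KO mean was 6.26 ± 0.55 and the WT mean 5.67 ± 0.74 (SD, n = 2 each). The difference was 0.45 within number 1 and 0.73 within number 2. Like that of Serpinb2 it varied with the arrays included, being 0.068 without WT 2, 0.20 without KO 1, 0.98 without KO 2 and 1.11 without WT 1. The difference between the numbers enters into these values too. The second, dimmer probe set of Serpinb1a did not show the order, at 3.65 on KO 1, 3.80 on WT 1, 3.57 on KO 2 and 3.65 on WT 2. The platform marks this probe set as one that can bind transcripts of related genes, and Serpinb1b and Serpinb1c are relatives of Serpinb1a.

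Serpinb5, or maspin, a clade member that does not inhibit proteases and is a well-known product of epithelial basal cells, had a range of 0.39 over the arrays, against the 2.95 of Serpinb2. It was at 11.25 on KO 1, 11.22 on WT 1, 11.61 on KO 2 and 11.46 on WT 2. Here both number 1 arrays lay below both number 2 arrays, the opposite of Serpinb2. The KO mean of 11.43 ± 0.26 and the WT mean of 11.34 ± 0.17 (SD, n = 2 each) differed by 0.09 (SE 0.18, limma adjusted p = 1). The 3 other probe sets of Serpinb5 differed by 0.03, 0.11 and -0.0033, and the probe set with the last of these had a range of only 0.01 over the arrays.

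Serpinb8, a serpin that can inhibit the proprotein convertase furin, was at 7.85 on KO 1, 7.80 on WT 1, 7.53 on KO 2 and 7.70 on WT 2. Its groups overlapped, with a difference of -0.06 (SE 0.14, limma adjusted p = 1). Its second probe set was at 6.96 on KO 1, 6.82 on KO 2 and the identical value of 6.78 on both WT arrays, which gives a difference of the other sign, 0.11. The direction for Serpinb8 therefore depends on the probe set.

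The remaining 4 measured members were dim. Their values, like those of Serpinb1a, lay below 6.88, the mean level of the median gene, and the table holds no detection calls, so a transcript cannot be told from background. Serpinb7, or megsin, whose human gene is mutated in a hereditary palmoplantar keratosis, was at 4.72 on KO 1, at 4.33 on both WT 1 and KO 2, and at 4.17 on WT 2, a difference of 0.27 (SE 0.17). Only KO 1 stood above the rest. Serpinb11, an epithelial serpin whose mouse form inhibits trypsin-like proteases, was at 4.18 on KO 1, 4.001 on WT 1, 4.24 on KO 2 and 4.51 on WT 2, and the WT arrays enclosed both KO arrays.

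Serpinb9, the granzyme B inhibitor that shields lymphocytes from their own granules, was at 4.40 on KO 1, 4.68 on WT 1, 5.04 on KO 2 and 4.59 on WT 2. KO 2 was its highest array and KO 1 its lowest, and the second probe set repeated this with 2.97 on KO 1 and 3.41 on KO 2 around 3.10 and 3.03 on the WT arrays. The difference of 0.08 (SE 0.26) is thus the mean of KO arrays that lay on opposite sides of WT.

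Serpinb12 is an epithelial inhibitor of trypsin-like proteases. On the brightest probe set it was the 1 member of 8 whose KO arrays both lay above both WT arrays. It was at 4.77 on KO 1, 4.93 on KO 2, 4.71 on WT 1 and 4.72 on WT 2, a difference of 0.14 (SE 0.08, limma adjusted p = 1). Of all genes, 8.2% had such an order and 5.7% had both KO arrays below, and no member was among the latter. The second probe set of Serpinb8 also had both KO arrays above both WT arrays. The dimmer probe set of Serpinb12 kept the order and was much wider, at 3.73 on KO 1, 4.77 on KO 2 and 3.60 on both WT arrays. Its difference of 0.65 came mostly from KO 2, with 1.18 within number 2 and 0.13 within number 1.

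**Figure D2:**
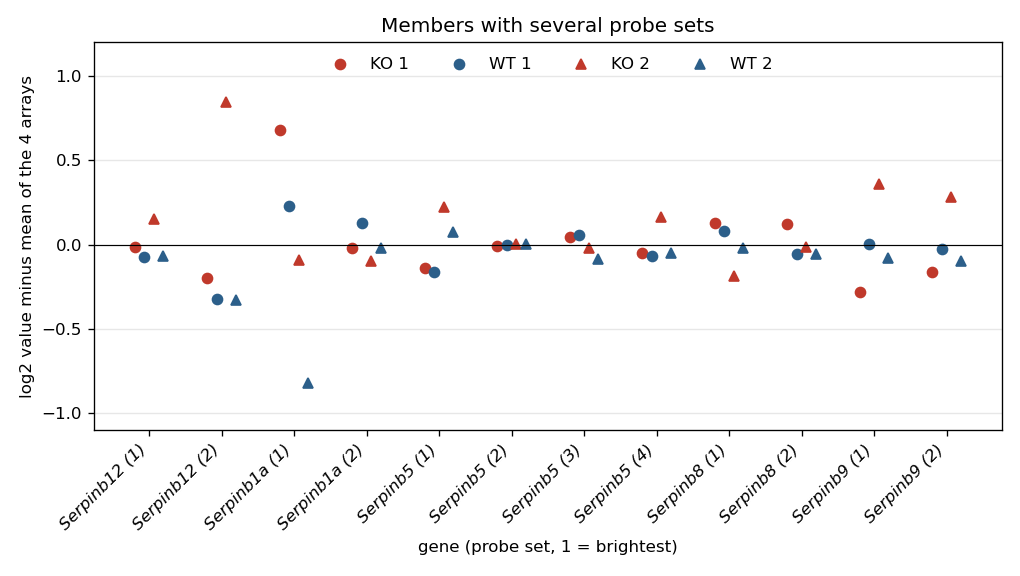
Log2 value minus the mean of the 4 arrays for every probe set of the 5 members that have several, numbered from the brightest (red KO, blue WT, circles number 1, triangles number 2). The probe sets of Serpinb9 share an order, the second of Serpinb12 has KO 2 alone at the top, and the spread of Serpinb1a from KO 1 to WT 2 appears in its first probe set only.

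As a group the 8 measured members gave no call. None of the 7 relatives of Serpinb2 had an adjusted p under 0.05 (limma, 0.011% of all genes did) or, in this fit without a term for the replicate number, an unadjusted p under 0.05 (1.88% of all genes). The smallest unadjusted p among all measured clade B relatives was 0.171, for Serpinb12. In 6 of the 8 members the KO mean was the higher one, against 9631 of all 18193 genes. The median difference was 0.11, against 0.01 over all genes. In 5 of the 8, KO was higher within both numbers, against 24% of all genes. 2 of the 8, Serpinb2 and Serpinb1a, were at least 1.5-fold higher in KO on average, which 0.291% of all genes were. Without WT 2, which sets both KO arrays against WT 1 alone, neither was. Serpinb2 was part of the reason for the choice of genes, so these counts are descriptions and nothing is read from them.

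By replicate number, Serpinb2 and 2 of its 7 measured relatives (Serpinb1a and Serpinb8) had both number 1 arrays above both number 2 arrays, against 22% of all genes, and 2 relatives (Serpinb5 and Serpinb11) had them below, against 21.7%. The spread of Serpinb2 between the numbers was in view when the genes were chosen, so nothing is read from its place in this count or in those that follow. These shares of all genes are large, so the separation by number was not peculiar to serpins. Serpinb2 and Serpinb1a were the 2 members with the order KO 1, WT 1, KO 2, WT 2 from high to low, which 6.63% of all genes had. On the brightest probe set they were also the only measured clade B genes with a range of at least 1 log2 unit over the arrays, against 2.22% of all genes.

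The other clade B genes were compared next, because a shift of the whole family would appear in them too. Of 18 further genes 10 had a probe set that the annotation assigns to that gene alone. The 10 included Serpinb3a, the mouse relative of the squamous cell carcinoma antigens, at 3.36 on KO 1, 3.46 on WT 1, 3.52 on KO 2 and 3.67 on WT 2 with a difference of -0.12 (SE 0.11), and Serpinb6a, an inhibitor of trypsin-like proteases and cathepsin G, at 10.82, 11.05, 11.17 and 11.06 on the same arrays with a difference of -0.06 (SE 0.15). Serpinb6e differed by -0.02, Serpinb6b by -0.03, Serpinb6c by 0.14 and Serpinb1b by 0.05. Among the Serpinb9 paralogues the difference was -0.18 for Serpinb9b, -0.06 for Serpinb9c, 0.13 for Serpinb9d and 0.18 for Serpinb9g. None of the 10 passed and none had both KO arrays outside the WT range on either side. 4 of the 10 had higher KO means, against 9631 of all 18193 genes, and the median was -0.02. On the brightest probe sets of all 18 measured clade B genes, Serpinb2 and Serpinb1a stood apart. The other 16 had differences between -0.18 and 0.27 there. This depended on the probe set, since the dimmer one of Serpinb12 differed by 0.65 and that of Serpinb1a by -0.11. 8 of the 10 further genes were dimmer than the median gene, and paralogues of the Serpinb6 and Serpinb9 groups can share probes. The platform also marks the probe sets of Serpinb3a, Serpinb6c and Serpinb6e as ones that can bind other transcripts. Single values among the 10 are therefore uncertain.

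**Figure D3:**
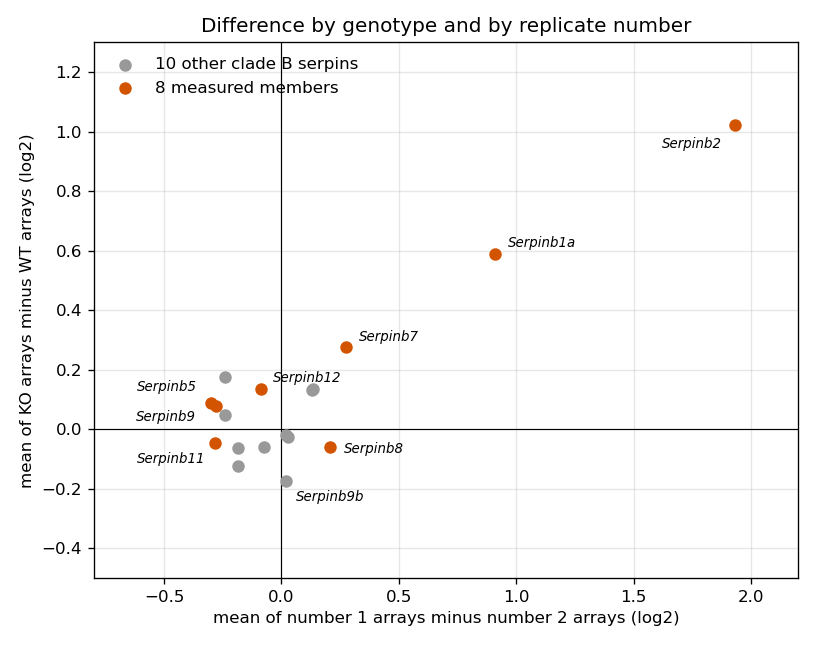
Each point is 1 of the 18 measured clade B serpins on its brightest probe set. The horizontal axis is the mean of the number 1 arrays minus that of the number 2 arrays and the vertical axis the mean of the KO arrays minus that of the WT arrays, both in log2 units. Serpinb2 lies at 1.93 by number and 1.02 by genotype, Serpinb1a at 0.91 and 0.59, and the 16 others lie between -0.18 and 0.27 by genotype.

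Of 12 genes of proteases that clade B serpins bind, 6 had higher and 6 lower KO means (median -0.03), and none passed. Plau, the urokinase that Serpinb2 inhibits, had the same order of arrays as Serpinb2, at 7.84 on KO 1, 7.31 on WT 1, 6.47 on KO 2 and 6.37 on WT 2, with a KO minus WT difference of 0.32 (SE 0.67, limma adjusted p = 1). Its numbers separated by 1.16 on average, and its genotypes overlapped. Plat, the tissue-type activator, differed by -0.10 (SE 0.15), and Plaur, the urokinase receptor, was at 7.32, 7.58, 7.66 and 7.72 on KO 1, WT 1, KO 2 and WT 2, lowest where Serpinb2 was highest.

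The partners of Serpinb1a are neutrophil granule proteases, and their probe sets were dim. Elane (neutrophil elastase) lay between 5.08 and 5.14, Prtn3 (proteinase 3) lay between 6.39 and 6.56, and Ctsg (cathepsin G) differed by 0.02 (SE 0.04). Gzmb, the granzyme B held by Serpinb9, lay between 4.87 and 5.07. Furin differed by 0.01 (SE 0.09) and the lysosomal protease Ctsl by -0.23 (SE 0.27). Casp1, the inflammatory caspase, was the 1 gene of this list at least 1.5-fold apart without overlap, at 5.23 and 5.37 in KO against 5.73 and 6.08 in WT, a difference of -0.61 (SE 0.16) that did not pass (limma adjusted p = 1). Of 10 measured genes of plasminogen activation 7 had higher KO means (median 0.11) and none passed. Of 20 measured surface proteases and inhibitors of the epidermis 13 were higher (median 0.08), and none passed. Both counts stand against 9631 of all 18193 genes with a higher KO mean. The 16 measured serpins of other clades had a median of 0.00 and were evenly divided, 8 higher and 8 lower. 2 of these 16 had a range of at least 1 log2 unit over the arrays, against 2.22% of all genes.

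Genes that mark keratinocyte states were set beside the serpins, since differentiation and stress are known to alter several of them. Krt1, a suprabasal keratin, was at 11.37 and 11.31 in KO against 10.32 and 9.86 in WT, with no overlap, a difference of 1.25 (SE 0.19, limma adjusted p = 1). Its partner Krt10 differed by 0.81 (SE 0.28) and the calmodulin-like gene Calm4 by 0.65 (SE 0.31). These genes separated the genotypes, and in them KO 2 was close to KO 1. Another 3 genes of this list, Tgm3, Dsc1 and Grhl1, had the order of Serpinb2, which 6.63% of all genes had. Tgm3 was at 7.77 on KO 1, 6.77 on WT 1, 6.54 on KO 2 and 6.04 on WT 2, a difference of 0.75 (SE 0.58). Of the 21 measured spinous and granular genes 14 had higher KO means, against 9631 of all 18193 genes. Their median was 0.06, and no gene was past the adjusted threshold.

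Of 18 measured stress and wound genes 9 were higher and 9 lower (median 0.03). The order of Serpinb2 was found in 2 of the 18, S100a8 and Krt6a, against 6.63% of all genes. Krt16, a keratin of activated epidermis, was at 8.27 on KO 1, 7.61 on WT 1, 7.89 on KO 2 and 7.34 on WT 2, a difference of 0.61 (SE 0.19, limma adjusted p = 1), and Krt6a differed by 0.19 (SE 0.14). Of 13 measured basal keratinocyte genes 10 had higher KO means (median 0.13), against 9631 of all 18193 genes. In 6 of the 13 KO 1 and KO 2 each exceeded either WT array, against 8.2% of all genes. None of the 13 passed. Krt14, a basal keratin, differed by 0.13 (SE 0.05). The part of differentiation or stress in the Serpinb2 values was not tested.

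**Figure D4:**
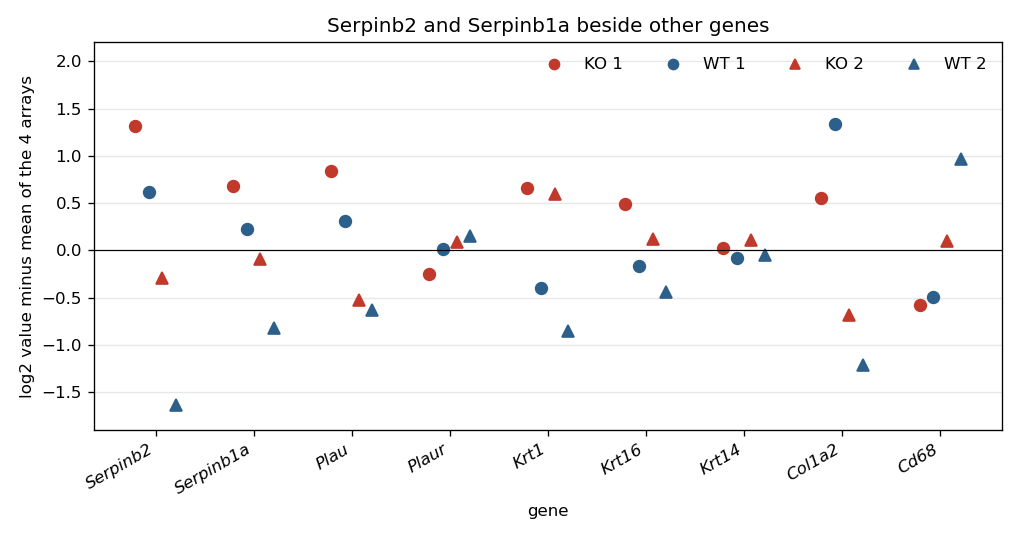
Log2 value minus the mean of the 4 arrays for Serpinb2, Serpinb1a and 7 other genes (red KO, blue WT, circles number 1, triangles number 2). Plau has the order of Serpinb2, from 7.84 on KO 1 to 6.37 on WT 2, Krt1 separates the genotypes, Col1a2 is highest on WT 1 and Cd68 on WT 2.

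Several facts about the arrays limit how the serpin values can be read. The KO and WT arrays also differed in sex-linked RNA, Xist being at 5.26 and 5.45 in KO and at 13.28 and 13.19 in WT, so sex and genotype cannot be told apart. Only Xist and Eif2s3y passed across all genes. The 18S ribosomal RNA control at its 5′ end was at 11.51 and 11.59 on the number 1 arrays and at 9.46 and 9.40 on the number 2 arrays. At its 3′ end the gap was narrower, at 11.19 and 11.67 against 10.64 and 10.68. The dim transferrin receptor control ran the same way, at 4.19 and 4.03 against 3.55 and 3.92 at its 5′ end. The Gapdh and beta-actin 5′ controls ran the other way, Gapdh being at 12.54 and 12.72 against 13.10 and 13.02. By their means over the 4 arrays, 13 of 13 basal keratinocyte genes and 12 of 14 hair follicle stem cell genes were brighter than the median gene, among them Krt5 (between 13.47 and 13.76), Krt15 (between 13.62 and 14.05) and Lhx2 (between 11.66 and 11.76). The other 2 stem cell genes, Fgf18 (between 4.52 and 4.99) and Dio2 (between 6.20 and 6.50), were dimmer than it, and the stem cell surface marker Cd34 ran from 6.20 to 8.32. Fewer cells of a type and less RNA per cell cannot be told apart in such bulk samples.

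Fibroblast genes moved with the number as well: 14 of 15 had both number 1 arrays above both number 2 arrays, against 22% of all genes. Also, 14 of 15 were highest on WT 1. Their median was 9.15 on KO 1, 9.96 on WT 1, 8.75 on KO 2 and 8.47 on WT 2. Col1a2, a fibrillar collagen gene, was at 13.10, 13.89, 11.86 and 11.34 on the same arrays. Serpinb2 likewise had both number 1 arrays above both number 2 arrays, and was highest on KO 1. Macrophage and granulocyte genes were all dimmer than the median gene and had array medians of 4.41 on KO 1, 4.40 on WT 1, 4.67 on KO 2 and 4.51 on WT 2, and the pan-leukocyte gene Ptprc lay between 3.51 and 3.55. Cd68, a lysosomal macrophage marker, ran the other way from Serpinb2, from 5.34 on KO 1 to 6.89 on WT 2. Cd3e, a T cell receptor component, lay between 5.90 and 6.10. Of 10 melanocyte genes 7 had both number 1 arrays on top, against 22% of all genes. The melanocyte array medians were 6.82 on KO 1, 6.89 on WT 1, 6.11 on KO 2 and 5.96 on WT 2. The part of fibroblast or melanocyte RNA, RNA quality or sex in the serpin values was not tested.

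The genes most like Serpinb2 were found by the distance between log2 values, each minus its gene's mean, over the 4 arrays. They were Itgbl1, Igfbp3, Tnmd, Rbm47 and Hddc3, with distances from 0.63 to 0.98. Itgbl1, the nearest, and Tnmd were highest on WT 1, at 6.37 and 8.22, with 6.27 and 7.77 on KO 1. Igfbp3, a binding protein for insulin-like growth factors, was at 10.39 on KO 1, 10.27 on WT 1, 9.52 on KO 2 and 8.56 on WT 2. Rbm47, an RNA-binding protein, was at 7.70, 7.30, 6.20 and 5.94 on the same arrays. Serpinb1a ranked 13 among all genes, with a distance of 1.13, and the other 16 clade B genes ranked 967 or lower. Serpinb2 was also 1 of 31 genes (0.17% of all) at least 2-fold higher in number 1 than in number 2 within both genotypes. Of the 31, 23 were highest on WT 1, and 8, with Serpinb2, on KO 1. Among the 23 were the fibroblast genes Col1a1, Col1a2, Pdgfra and Pdgfrb. Myc, a growth-promoting transcription factor chosen after its values were seen, was among the 6 that also had the order of Serpinb2, at 10.48, 10.20, 9.38 and 9.16. The 3 genes most like Serpinb12, whose range was small, were Invs, Fnbp1l and Bid, within a distance of 0.01, as many genes of small range are close to one another.

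Promoter sequences show what the members share that the choice of genes did not use. RefSeq windows from 250 bases before to 50 after each gene's start (GRCm38.p6) were held for 8 of the 9 members, all but Serpinb1a. Each was searched on both strands for TGANTCA, where N is any base. This pattern is broader than the AP-1 site (the binding element of FOS and JUN proteins), whose middle letter is usually C or G. Among the members only Serpinb7 and Serpinb8 had a G there, and all other matches had A or T. The share of all genes with C or G there was not counted. TGANTCA was present in 7 of the 8 genes (87.5%), namely every member on chromosome 1, and absent from the window of Serpinb9. It was present in 8.97% of all 27025 genes with a window and in 0 of 17 other clade B genes with one. Most of the other clade B genes lie on chromosome 13, as does Serpinb9. By window, 8 of 10 for the members and 7.81% of all 32851 windows held it. The member windows had a median GC content of 39.7%, against 49.3% for those of the other clade B genes and 52.7% for all. The matches are shown with 12 bases on either side, the match in capitals, all on the plus strand and in the direction of the gene, so that the differing middle letter can be seen.
Serpinb2, chr1:107511317-107511347: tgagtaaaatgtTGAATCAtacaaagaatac
Serpinb5, chr1:106861023-106861053: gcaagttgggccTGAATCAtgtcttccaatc
Serpinb7, chr1:107422632-107422662: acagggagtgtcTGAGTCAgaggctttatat
Serpinb8, chr1:107589971-107590001: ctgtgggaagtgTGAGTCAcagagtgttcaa
Serpinb10, chr1:107528937-107528967: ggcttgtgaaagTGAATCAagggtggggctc
Serpinb11, chr1:107362226-107362256: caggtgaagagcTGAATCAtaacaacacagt
Serpinb12, chr1:106934392-106934422: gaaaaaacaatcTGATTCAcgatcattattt

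These matches began 94 bases before the first of 2 listed starts in Serpinb2, 140 before the start in Serpinb5, 45 in Serpinb7 and in Serpinb12, 23 in Serpinb8, 54 in Serpinb10 and 76 in Serpinb11. Serpinb8 and Serpinb11 each held a second match. Serpinb5, with a range of 0.39, and Serpinb2, with one of 2.95, both hold the letters TGAATCA, and a match in a window does not show a bound site. The letters TATAAA were found for 3 of the 8 genes (37.5%: Serpinb2, Serpinb7 and Serpinb12), against 15.7% of all genes. They were about as frequent in the other clade B genes, at 6 of 17 (35.3%), so they were not particular to the members. TGACGTCA, a cyclic AMP response element, was in 0 of the 10 member windows and in 1.79% of all. The Serpinb2 window before its first start is printed whole because it belongs to the gene the comparison turns on, at chr1:107511173-107511472 on the plus strand, with TGAATCA and TATAAA in capitals. The TATAAA began 29 bases before this start.
Serpinb2 promoter: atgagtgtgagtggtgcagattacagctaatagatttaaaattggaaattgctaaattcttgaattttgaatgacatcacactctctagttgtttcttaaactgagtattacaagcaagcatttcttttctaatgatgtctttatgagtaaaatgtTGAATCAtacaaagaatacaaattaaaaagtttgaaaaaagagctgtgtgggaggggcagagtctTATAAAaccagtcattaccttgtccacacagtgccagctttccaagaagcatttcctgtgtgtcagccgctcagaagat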

How the data were processed

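The deposited table holds log2 values. Per the submitters' processing notes the authors used RMA (no version stated), which corrects background, normalizes between arrays and summarises each probe set. The authors' log2 values ran from 2.51 to 14.56, with array medians of 5.85 to 5.87. Of the probe sets, 47.1% had equal values on at least 2 arrays. The number of arrays limits the precision. Groups and numbers came from the sample titles. Probe sets were named by GEO's platform annotation, 34945 with 1 symbol, 932 with several and 9160 with none here, and 34754 were matched by gene identifier to RefSeq (GRCm38.p6). Each gene was represented by its brightest probe set.

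KO and WT were compared over all genes with limma 3.58.1 in R 4.3.3 (two-sided, no covariate, Benjamini-Hochberg, threshold 0.05), after a check of the fit on simulated data. The alternatives were other normalizations, a filter on dim genes, other probe set rules, eBayes with trend and robust estimation, a replicate block and leaving out arrays. Members, gene lists and the rule for naming genes were chosen with earlier results of these data known. The rule names all members and measured clade B genes, fixed partners and markers, list genes at least 1.5-fold apart without overlap, and the genes nearest Serpinb2 and Serpinb12.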

Additional observations from a re-analysis of the deposited data

How the results depend on the processing

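Across all genes the count past the adjusted threshold (limma) was 2, and 3 with quantile normalization again or median centring. It was 1 with the filter on dim genes, and 0 when a gene's probe sets were averaged, with every probe set by itself and without any 1 array (0 to 0). At an unadjusted p under 0.05 these last fits called 375, 711 and 1044 to 2044 genes. With the replicate block 0 genes passed (879 unadjusted). Serpinb1a was 1 of these 879, its SE falling to 0.098 from 0.53 (unadjusted p = 0.017, limma adjusted p = 0.81). The labels do not say that numbers pair samples, although arrays of 1 number deviated together (r = 0.56 across genes, which are not independent), so the pairing is not established. Of 82 member values under these alternatives, 10 had the other sign, and no relative of Serpinb2 came below an adjusted p of 0.524 (limma). The 10 were Serpinb2 without WT 2 (-0.11), Serpinb1a on its other probe set (-0.11), Serpinb5 on 1 probe set (-0.0033), without KO 2 (-0.093) and without WT 1 (-0.032), Serpinb8 with its probe sets averaged (0.026), on its other probe set (0.11) and without KO 2 (0.099), Serpinb9 without KO 2 (-0.24) and Serpinb11 without WT 2 (0.21). Serpinb2, which has no test, ran from -0.11 to 2.15 without single arrays, Serpinb1a from 0.068 to 1.11, Serpinb5 from -0.093 to 0.27, Serpinb7 from 0.079 to 0.47, Serpinb8 from -0.22 to 0.099, Serpinb9 from -0.24 to 0.40, Serpinb11 from -0.30 to 0.21 and Serpinb12 from 0.054 to 0.22. The median over the members ran from 0.08 to 0.21, and that over the other clade B genes from -0.02 to 0.03, without single arrays.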
